A study of Mus musculus with 2 samples.

Results

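The antioxidant defence genes described here are the glutathione peroxidases Gpx1 and Gpx4, the peroxiredoxins Prdx1, Prdx2 and Prdx5, thioredoxin (Txn1), thioredoxin reductase (Txnrd1), the superoxide dismutases Sod1 and Sod2, and catalase (Cat). They were chosen by gene symbol, and each of the 10 symbols matched a single entry among the 55487 genes of the expression library. All 10 were at 10 CPM (unique molecules of a gene per 1000000 counted) or more in every comparison, so none was lost to the filter on low values.

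Superoxide leaking from mitochondria is turned into hydrogen peroxide by superoxide dismutases, and the peroxide is then removed by catalase, by glutathione peroxidases, which draw on glutathione, and by peroxiredoxins, which draw on thioredoxin. Thioredoxin reductase restores thioredoxin with electrons from NADPH, and thioredoxin also supplies electrons to ribonucleotide reductase for DNA synthesis. In T cells, peroxide made on activation takes part in antigen receptor signalling, and Gpx4 guards activated mouse T cells from death by lipid peroxidation. Regulatory T cells (Tregs) of visceral fat commonly carry ST2, the interleukin-33 receptor encoded by Il1rl1.

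The series holds CD4 T cells of C57BL/6 Foxp3.Cre-YFP mice of the genotypes Treg-bmal1KO and Treg-bmal1WT, taken at ZT12 and ZT0 (zeitgeber time, counted from lights on) from visceral adipose tissue (VAT) and spleen. Cre is driven by Foxp3, so the loss of Bmal1, a transcription factor of the circadian clock, is aimed at Tregs, while other T cells of the same mice keep the gene. The labels give 34000 sorted VAT cells and 32000 sorted splenic cells, tagged with hashtag antibodies and pooled into 1 single-cell 3′ expression library with 1 hashtag library. The sources used here give no age or number of mice. The 2 tissues, 2 genotypes and 2 times make 8 combinations, while hashtags carry numbers alone and 6 were in use, so no hashtag was tied to a tissue, genotype or time, none was averaged with another as a replicate, and no test or p-value is given.

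The expression library held 96923402 unique molecules (UMIs), with a median of 3469 UMIs per barcode. After filtering and removal of barcodes with more than 1 hashtag, 12684 T cells were sorted by marker genes into 1655 ST2 Treg-type, 1643 other Treg-type, 2204 Th1-type, 1348 naive-type, 189 proliferating and 5645 other T cells. No antioxidant gene was used in the gates. Cd3e stood at 448 to 609 CPM and Cd8a at 0 to 0.179 CPM in all 6 types, and Foxp3 at 71.2 CPM in ST2 Treg-type and 65.9 CPM in other Treg-type cells. These are gate genes, so their levels do not check the type names. Treg-type cells could also enter without Foxp3. Other Treg-type cells held Ifng at 80.9 CPM and Tbx21 at 34.8 CPM, against 173 and 108 CPM in Th1-type and 17.1 and 9.63 CPM in other T cells. Barcodes with both Cd8a and Cd8b1 had been set aside, and the sum of these genes was 7.18 to 15.2 CPM in the 6 types. Summed marker lists of other cells were low in every type, with 20.7 to 48.2 CPM for myeloid, 3.94 to 15.2 CPM for B cell, 12.7 to 18.4 CPM for endothelial, 22.3 to 32.6 CPM for stromal and 0 to 4.72 CPM for erythroid genes. Barcodes with at least 2 genes of one such list had also been set aside. Low sums thus follow from the gates and are no separate check of purity. Haemoglobin transcripts reached 1100 CPM in other Treg-type and 856 CPM in Th1-type cells, against 77.4 to 634 CPM in the other 4 types. Arntl, which encodes Bmal1, was read at 24.9 CPM in ST2 Treg-type and 17.8 CPM in other Treg-type cells, against 18.6 CPM in Th1-type cells; without a key from hashtag to genotype, and with 3′ tags that may lie outside the deleted stretch, this checks no label.

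Promoter sequences are shown for the 4 antioxidant genes that met the fold rule in proliferating cells, the comparison with the most members past it: Txn1, Prdx1, Prdx2 and Txnrd1. Each is the 150 bases before the annotated start, 5′ to 3′ on the gene's strand, from RefSeq on GRCm38.p6. Capitals mark either of 2 motifs, searched on both strands: TGACNNNGC, the core of the antioxidant response element through which NRF2 acts, and GGGCGG, a GC box.
Txn1: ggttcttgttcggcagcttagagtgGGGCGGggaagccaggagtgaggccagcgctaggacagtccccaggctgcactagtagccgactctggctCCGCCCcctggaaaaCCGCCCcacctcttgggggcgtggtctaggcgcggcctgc
Prdx1: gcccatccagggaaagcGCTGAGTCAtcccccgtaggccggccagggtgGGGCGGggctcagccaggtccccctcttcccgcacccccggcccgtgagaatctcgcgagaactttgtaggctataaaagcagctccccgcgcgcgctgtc
Prdx2: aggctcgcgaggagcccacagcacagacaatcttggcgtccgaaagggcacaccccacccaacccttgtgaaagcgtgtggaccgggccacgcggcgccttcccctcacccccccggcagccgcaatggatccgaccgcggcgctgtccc
Txnrd1: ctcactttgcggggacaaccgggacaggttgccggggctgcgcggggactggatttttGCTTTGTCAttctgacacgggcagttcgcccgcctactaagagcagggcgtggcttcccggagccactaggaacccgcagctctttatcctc
The windows are chr4:57956412-57956561 on the minus strand for Txn1, chr4:116685449-116685598 on the plus strand for Prdx1, chr8:84969472-84969621 on the plus strand for Prdx2, and chr10:82859056-82859205 on the plus strand for Txnrd1. The genes run over chr4:57943373-57956411 for Txn1, chr4:116685599-116700000 for Prdx1, chr8:84969622-84974811 for Prdx2 and chr10:82833951-82897724 for Txnrd1. Txnrd1 has 3 listed starts, and the start whose promoter holds the antioxidant response core is shown. The Prdx1 match reads TGACTCAGC on the minus strand, 133 to 125 bases before the start, and the Txnrd1 match reads TGACAAAGC, also on the minus strand, 92 to 84 bases before it.

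Over windows that run 250 bases before to 50 bases after the start, TGACNNNGC was found in 3 of 15 promoter entries of the 10 genes, those of Prdx1, Txnrd1 and Sod1, and in 12.4% of all 32851 promoters. The Sod1 match reads TGACCACGC on the minus strand, 56 to 48 bases before the start. GGGCGG was found in 12 of the 15 entries, with at least 1 entry for each of the 10 genes, and in 35.7% of all promoters. CACGTG, the E-box that BMAL1 binds with its partner CLOCK, was in 0 of the 15 entries and in 7.15% of all promoters. These matches describe letters in a window and not bound sites.

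**Figure D1:**
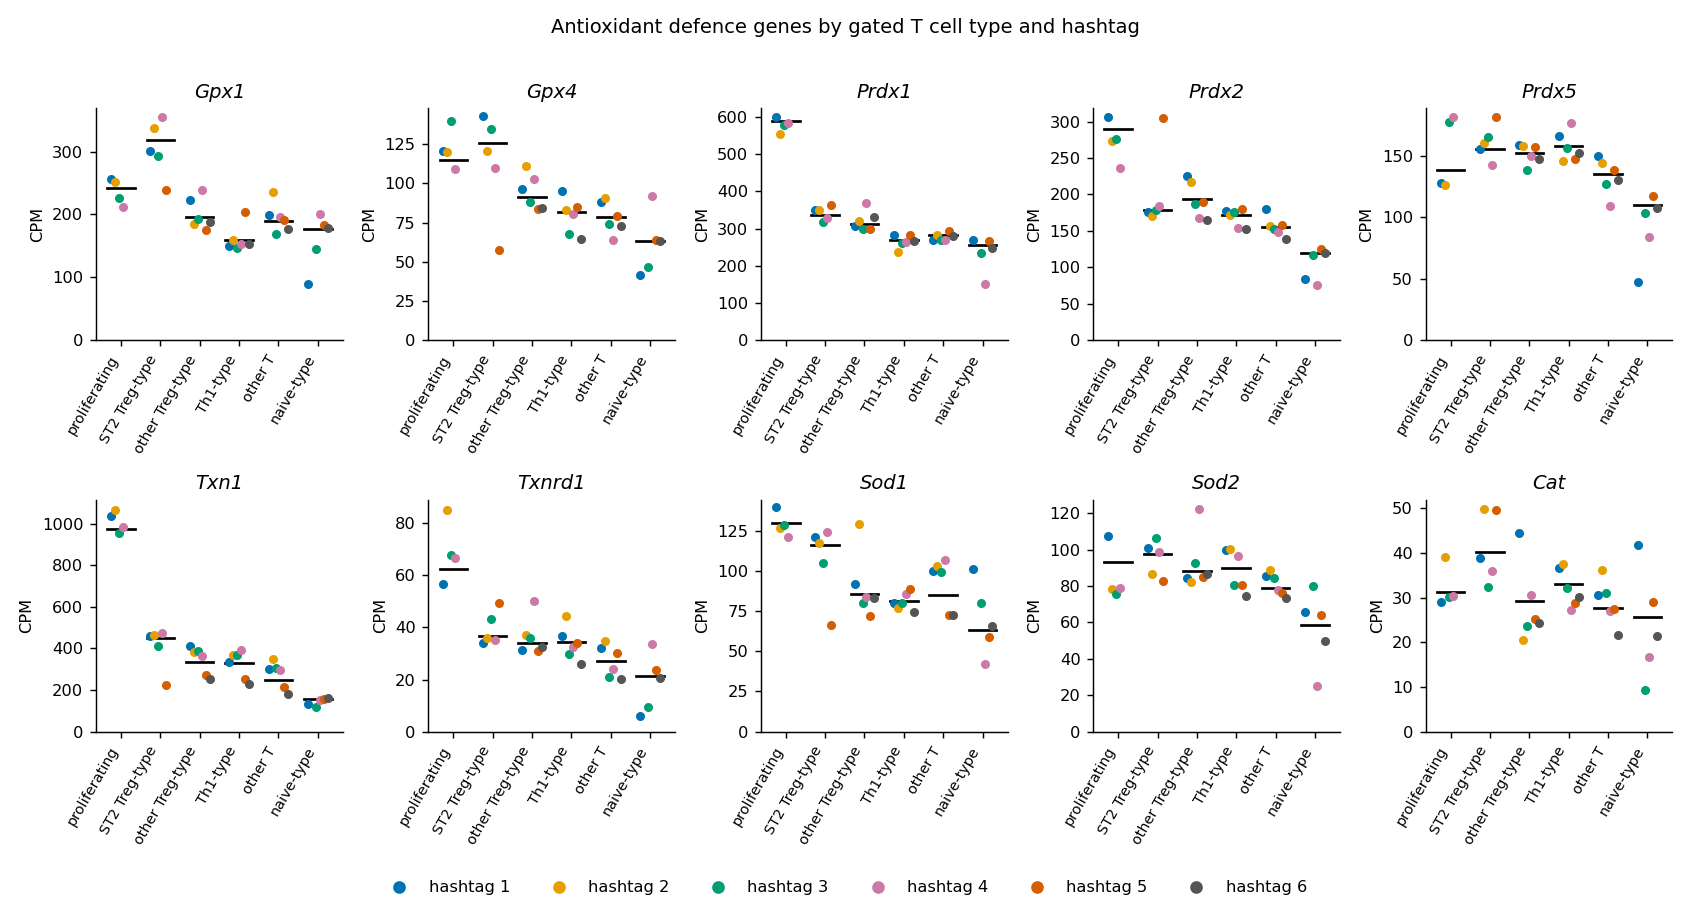
Level of each of the 10 genes in CPM (vertical axis, starting at 0, 1 panel per gene) in the 6 gated T cell types; each point is 1 hashtag with enough cells and the black line is the level over all cells of the type. Proliferating cells lie apart at the top for Txn1 and Prdx1, and ST2 Treg-type cells lead for Gpx1. For Prdx2 the ST2 Treg-type point of hashtag 5, at 306 CPM, lies among the proliferating points, 237 to 307 CPM. The naive-type median over hashtags is lowest for 9 of the 10 genes (5 with CPM that leave out mitochondrial and ribosomal protein genes).

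Levels are CPM, the summed UMIs of a gene scaled by all UMIs of the same hashtag and type, so a share of expressing cells and an amount per cell cannot be told apart. They are compared between types for a gene and not between genes. The genes listed in the library include near-identical copies named for Txn1, Prdx1, Prdx2 and Gpx4 (such as Txn-ps1 and Gpx4-ps2), and no source used here says how reads shared with them were counted, so the levels of these 4 genes are uncertain to that extent. Naive-type cells had the lowest median over hashtags for 9 of the 10 genes, the exception being Gpx1, which was lowest in Th1-type cells. Mitochondrial and ribosomal protein genes took 44.5% of UMIs in naive-type cells, against 25.7% to 35.9% in the other 5 types. With CPM that leave these genes out, naive-type cells remained lowest for 5 members, Gpx4, Prdx2, Prdx5, Txn1 and Txnrd1, while Prdx1 and Sod1 were lowest in Th1-type, Cat in other Treg-type and Sod2 in proliferating cells. The highest type was the same on both scales for 9 members, proliferating cells for Txn1, Txnrd1, Prdx1, Prdx2 and Sod1 and ST2 Treg-type cells for Gpx1, Gpx4, Sod2 and Cat. For Gpx4 this lead was slim, at 120.5 CPM in ST2 Treg-type and 120.2 CPM in proliferating cells. It was also slim for Sod2 without mitochondrial and ribosomal protein genes, at 134 CPM in ST2 Treg-type and 133 CPM in other Treg-type cells.

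Txn1, the small protein that hands electrons to peroxiredoxins, had a median over hashtags of 1011 CPM in proliferating cells (955 to 1068 CPM), 461 CPM in ST2 Treg-type cells (223 to 476 CPM), 374 CPM in other Treg-type cells (252 to 413 CPM), 353 CPM in Th1-type cells (227 to 393 CPM), 298 CPM in other T cells (179 to 349 CPM) and 151 CPM in naive-type cells (117 to 159 CPM). Over all cells of a type, the 95% Poisson interval was 930 to 1019 CPM in proliferating and 433 to 465 CPM in ST2 Treg-type cells. Those of other Treg-type cells, 319 to 349 CPM, and Th1-type cells, 317 to 343 CPM, overlapped, but these types draw different shares of their cells from each hashtag. Within hashtags Txn1 was higher in other Treg-type than in Th1-type cells in 5 of 6, with intervals apart in hashtag 1, at 413 CPM (379 to 449 CPM) in other Treg-type and 336 CPM (312 to 362 CPM) in Th1-type cells, and overlapping in the other 5. Txnrd1, the selenoenzyme that restores thioredoxin, had medians of 67.4 CPM in proliferating cells, 35.8 CPM in ST2 Treg-type, 34.3 CPM in other Treg-type, 33.3 CPM in Th1-type, 27.1 CPM in other T and 20.4 CPM in naive-type cells. In hashtags 1 to 4, the proliferating cells had 56.7 CPM or more, above the highest hashtag of any other type, 50.1 CPM, but in the 19 and 14 proliferating cells of hashtags 5 and 6 Txnrd1 was at 43.8 and 31.0 CPM, within the other types' ranges. The range of ST2 Treg-type cells, 34.1 to 49.5 CPM, lay just above that of naive-type cells, 5.96 to 33.5 CPM.

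Prdx1, a cytosolic peroxiredoxin, had medians of 580 CPM in proliferating, 350 CPM in ST2 Treg-type, 314 CPM in other Treg-type, 276 CPM in other T, 265 CPM in Th1-type and 248 CPM in naive-type cells. Prdx2, a cytosolic relative that is abundant in red cells, was at 275 CPM in proliferating, 188 CPM in other Treg-type, 179 CPM in ST2 Treg-type, 174 CPM in Th1-type, 154 CPM in other T and 117 CPM in naive-type cells. In the 30 ST2 Treg-type cells of hashtag 5 it was at 306 CPM, within the proliferating range of 237 to 307 CPM. Prdx5, which also works in mitochondria and peroxisomes, ran flatter, with medians of 153 to 161 CPM in the ST2 Treg-type, Th1-type, other Treg-type and proliferating cells, 135 CPM in other T and 103 CPM in naive-type cells. For Prdx2 and Prdx5 the naive-type cells were lowest on both scales, whereas Prdx1 without mitochondrial and ribosomal protein genes was at 393 CPM in Th1-type and 458 CPM in naive-type cells.

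Gpx1, the main cytosolic glutathione peroxidase, had its highest median in ST2 Treg-type cells at 301 CPM (239 to 355 CPM). It was at 239 CPM in proliferating cells, 194 CPM in other T cells, 190 CPM in other Treg-type cells, 178 CPM in naive-type cells and 154 CPM in Th1-type cells (146 to 204 CPM). Gpx4, which reduces lipid peroxides within membranes, was at 120 CPM in both ST2 Treg-type and proliferating cells, and then at 92.3 CPM in other Treg-type, 81.7 CPM in Th1-type, 76.7 CPM in other T and 63.2 CPM in naive-type cells. Both peroxidases thus had a high ST2 Treg-type median, but Gpx1 was lowest in Th1-type cells and Gpx4 in naive-type cells.

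Sod1, the copper and zinc superoxide dismutase of the cytosol, had medians of 128 CPM in proliferating and 118 CPM in ST2 Treg-type cells, and of 65.6 to 99.6 CPM in the other 4 types. Sod2, the manganese enzyme of mitochondria, was at 98.5 CPM in ST2 Treg-type, 78.6 CPM in proliferating and 64.0 CPM in naive-type cells, and its hashtag ranges overlapped between all pairs of neighbours in this order. Cat, the peroxisomal enzyme that breaks peroxide down without a cofactor such as glutathione, was at 38.9 CPM in ST2 Treg-type and 21.4 CPM in naive-type cells. Its counts were small, with 59 UMIs over all proliferating cells and 143 over all naive-type cells.

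Types were then compared within each hashtag, so that both sides carry the same tag. Whether a hashtag stands for a single tissue, genotype and time is not known, so these may still differ between the sides. CPM ratios are given as log2, with 0.5 added to each count, and a gene met the fold rule when it was 1.5-fold or more apart in the same direction in every hashtag with enough cells, among genes at 10 CPM or more.

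Proliferating cells, which express cell cycle genes such as Mki67, were set against the other non-Treg T cells in hashtags 1 to 4. Of the 10 members, 4 were higher by the fold rule, Txn1, Txnrd1, Prdx1 and Prdx2, and 0 were lower, where 8.84% of the 7681 genes tested were higher and 4.77% were lower. The median ratio over the 10 genes was 0.53, against 0.04 over all genes tested. The thioredoxin and peroxiredoxin arm thus held all the members that met the rule, and no glutathione peroxidase, superoxide dismutase or catalase did.

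Txn1 was read at 1039, 1068, 955 and 984 CPM in the proliferating cells of hashtags 1 to 4, against 310, 348, 322 and 321 CPM in the other non-Treg T cells of the same hashtags. The groups did not overlap, and the log2 ratios of 1.74, 1.62, 1.57 and 1.62 are about 3.07-fold at their median. In the 19 and 14 proliferating cells of hashtags 5 and 6, too few for the fold rule, Txn1 stood at 721 and 736 CPM, against 202 and 178 CPM in the other non-Treg T cells. Txnrd1 was read at 56.7, 85.2, 68.0 and 66.8 CPM in proliferating cells of hashtags 1 to 4, against 33.2, 38.3, 24.0 and 27.5 CPM in the others, again without overlap, with a median log2 ratio of 1.25 (0.79 to 1.54). In hashtags 5 and 6 it was 43.8 and 31.0 CPM in proliferating cells, against 28.7 and 20.9 CPM in the others, and the difference in hashtag 6 was under 1.5-fold.

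Prdx1 was read at 600, 553, 578 and 583 CPM in the proliferating cells of hashtags 1 to 4, against 275, 263, 264 and 262 CPM in the other non-Treg T cells. Its log2 ratios were even over the hashtags, with a median of 1.13 and a range of 1.07 to 1.16. Prdx2 was read at 307, 274, 276 and 237 CPM in proliferating cells, against 176, 161, 160 and 146 CPM in the others, a median log2 ratio of 0.78 (0.71 to 0.81). The groups did not overlap for either gene. Prdx5 did not follow, with a median of 0.11 (-0.26 to 0.49).

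Of the members outside that arm, Gpx4 had a median log2 ratio of 0.56 (0.44 to 1.01), Sod1 of 0.50 (0.37 to 0.61) and Gpx1 of 0.43 (0.24 to 0.56). Each was above 0 in all 4 hashtags, as were 7 of the 10 members in all and 27.5% of all genes, and none of these 3 reached 1.5-fold in each. Cat, at 0.10, and Sod2, at -0.05, had hashtags on both sides of 0. Proliferating cells had a median of 9338 UMIs, against 2895 to 3977 UMIs in the non-Treg types, and mitochondrial and ribosomal protein genes took 25.7% of their UMIs, against 31.6% to 44.5% in those types. The part of depth in the ratios was not tested. With CPM computed without mitochondrial and ribosomal protein genes the median ratio of Txn1 was 1.47 and that of Prdx1 0.97, and Prdx2, at 0.63, no longer met the rule. The proliferating gate takes in Tregs, with Foxp3 at 12.7 CPM and Il1rl1 at 153 CPM, whereas cells with detected Foxp3 were gated out of the other side. Il1rl1 was read on both sides, at 134, 269, 113 and 255 CPM in proliferating cells of hashtags 1 to 4. It was at 127, 237, 123 and 216 CPM in other T cells of these hashtags, and at 34.3, 31.4, 21.9 and 38.1 CPM in Th1-type cells.

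**Figure D2:**
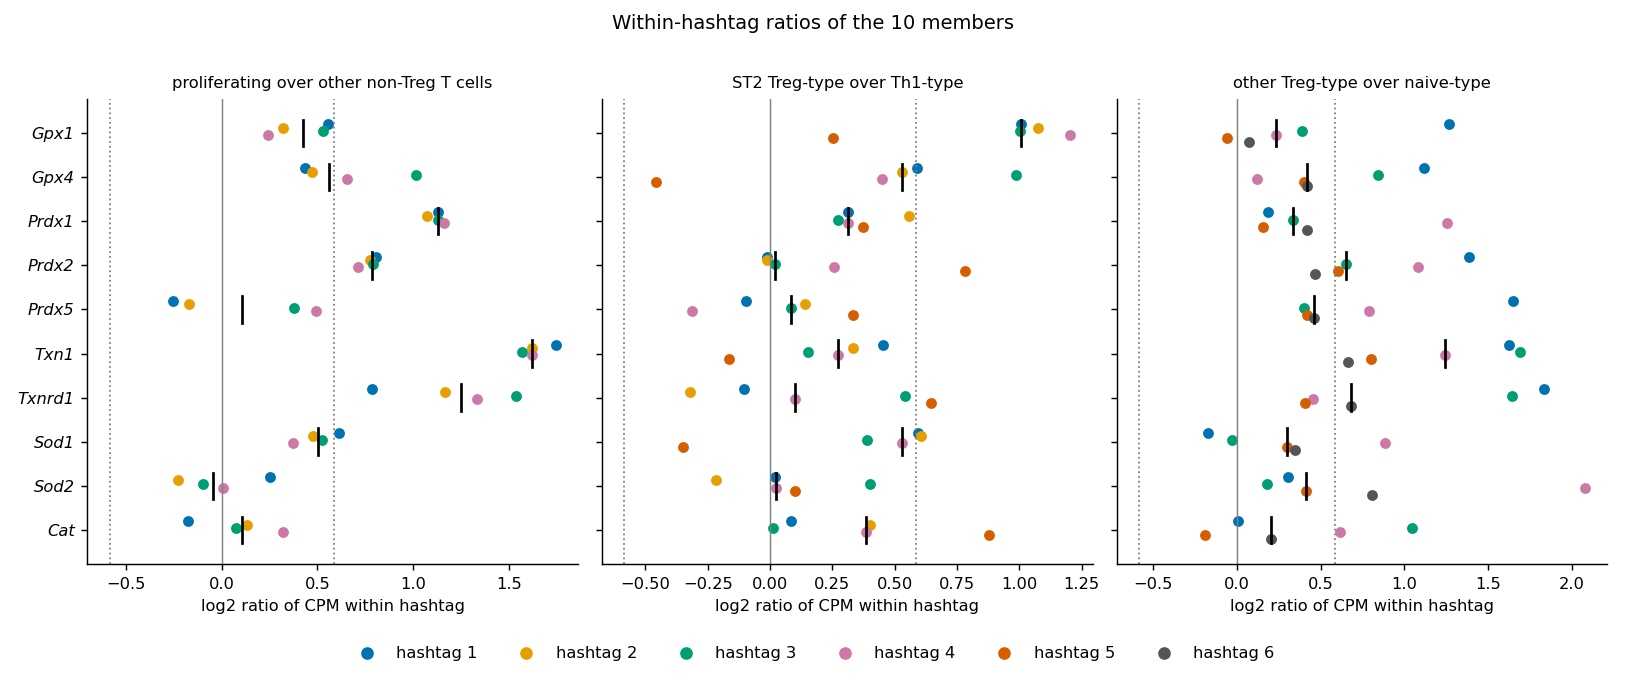
Log2 ratio of CPM within a hashtag (horizontal axis) for the 10 genes (rows) in 3 comparisons (panels); points are hashtags, black bars their median, the grey line is no difference and dotted lines are 1.5-fold. Txn1, Txnrd1, Prdx1 and Prdx2 lie beyond the dotted line in all 4 hashtags of the proliferating comparison, while in the ST2 Treg-type comparison hashtag 5 stands left of the others for Gpx1, Gpx4, Txn1 and Sod1 and right of them for Prdx2, Prdx5, Txnrd1 and Cat.

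ST2 Treg-type cells were set against Th1-type cells, effector cells marked by genes such as Tbx21 and Ifng, in hashtags 1 to 5. By the fold rule 0 of the 10 members were higher and 0 were lower, where 2.59% of the 7603 genes tested were higher and 1.09% lower, 3.68% either way; there was 1 library and hence no unadjusted p-value to count. The medians of all 10 genes were above 0, although those of Prdx2, Prdx5, Txnrd1 and Sod2 were at or below 0 without mitochondrial and ribosomal protein genes, with a median of 0.29, against -0.01 over all genes tested, and 3 of the 10 were above 0 in every hashtag, as were 12.7% of all genes.

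Gpx1 came nearest to the rule. It was read at 301, 338, 293, 355 and 239 CPM in ST2 Treg-type cells of hashtags 1 to 5, against 150, 160, 146, 154 and 204 CPM in Th1-type cells. The groups did not overlap, and the log2 ratio was 1.01, 1.07, 1.001 and 1.20 in hashtags 1 to 4 but 0.25 in hashtag 5, which held 30 ST2 Treg-type cells. Without hashtag 5, Gpx1 met the rule at a median of 1.04, and 7.85% of genes were then past it in either direction.

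Gpx4 was read at 143, 120, 135, 110 and 57.8 CPM in ST2 Treg-type cells, against 94.9, 83.1, 67.8, 80.3 and 84.7 CPM in Th1-type cells. It was higher in hashtags 1 to 4 and lower in hashtag 5, with a median log2 ratio of 0.53 (-0.46 to 0.99), and of 0.18 when Tregs were gated by Foxp3 alone. Sod1 behaved likewise, at 121, 118, 105, 124 and 66.1 CPM in ST2 Treg-type cells, against 80.1, 77.0, 80.04, 85.7 and 88.9 CPM in Th1-type cells, a median of 0.53 (-0.35 to 0.60). Txn1 had a median of 0.27 (-0.16 to 0.45).

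Prdx1 was higher in all 5 hashtags by a small margin, with a median log2 ratio of 0.31 (0.27 to 0.56), and so was Cat, with a median of 0.38 (0.01 to 0.88). Prdx2, Prdx5, Txnrd1 and Sod2 had medians of 0.02 to 0.10 with hashtags on both sides of 0. A list of 10 genes that respond to tissue digestion and to activation held Egr1 and AP-1 and heat shock genes, such as Fos, Jun and Hspa1a. Their summed level, called the AP-1 and heat shock sum below, differed between these types. It was 10659, 13865, 9018, 13138 and 1610 CPM in ST2 Treg-type cells of hashtags 1 to 5, against 4358, 4746, 3384, 4085 and 1480 CPM in Th1-type cells, lowest in hashtag 5 on both sides. Hashtag 5 had the lowest of the 5 log2 ratios for Gpx1, Gpx4, Txn1 and Sod1 but the highest for Prdx2 (0.78), Prdx5 (0.33), Txnrd1 (0.65) and Cat (0.88). The part of the AP-1 and heat shock sum in the ratios was not tested, and its list of genes was chosen after values were seen.

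Naive-type cells, resting cells marked by genes such as Ccr7 and Lef1, served as the other side of 3 comparisons, which therefore share their cells and are given side by side without a comparison of their results. Their thinnest hashtags, numbers 1, 3 and 4, held 47, 59 and 32 cells. Mitochondrial and ribosomal protein genes took 27.1% of UMIs in ST2 Treg-type, 32.2% in other Treg-type and 31.6% in Th1-type cells, against 44.5% in naive-type cells. With this, the median of all genes tested lay at 0.25, 0.27 and 0.23 against naive-type cells, and the ratios below are to be read relative to it.

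Of the 10 members, 1 was higher in ST2 Treg-type than in naive-type cells by the fold rule, Prdx5, and 0 were lower, where 8.06% of the 7429 genes tested were higher and 1.35% lower, 9.41% either way, in hashtags 1, 3, 4 and 5. Prdx5 was read at 156, 165, 143 and 182 CPM in ST2 Treg-type cells, against 47.7, 103, 83.7 and 118 CPM in naive-type cells, without overlap. Its median log2 ratio was 0.68 (0.65 to 1.62), and it no longer met the rule once ratios were centred on the median gene (0.46), without mitochondrial and ribosomal protein genes (0.37), with a prior count of 2 (0.65), by the mean of per-cell CPM (0.61) or with hashtags called by a top tag at 80% (0.58). Txn1 had a larger median of 1.70 but was at 0.54 in hashtag 5, where it was read at 223 CPM in ST2 Treg-type and 156 CPM in naive-type cells. The other members had medians of 0.31 for Sod1, 0.44 for Prdx1, 0.50 for Sod2, 0.83 for Gpx4, 0.84 for Cat, 0.89 for Gpx1, 1.12 for Prdx2 and 1.54 for Txnrd1. The median over the 10 genes was 0.83, and 7 were above 0 in each of the 4 hashtags, as were 27.2% of all genes.

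In other Treg-type cells, Txn1 alone of the 10 members was higher than in naive-type cells by the fold rule and 0 were lower, where 4.66% of the 7324 genes tested were higher and 0.683% lower in hashtags 1, 3, 4, 5 and 6. It was read at 413, 387, 365, 272 and 252 CPM in other Treg-type cells, against 131, 117, 151, 156 and 159 CPM in naive-type cells. The groups did not overlap, with a median log2 ratio of 1.24 (0.66 to 1.69). Centring on the median gene left a median of 0.99 and ended the call, as did CPM without mitochondrial and ribosomal protein genes, at 0.87, and gating Tregs by Foxp3 alone, also at 0.99. Prdx2 followed with a median of 0.65 (0.47 to 1.39) and Txnrd1 with 0.68 (0.41 to 1.83), while the other 7 members lay between 0.21 for Cat and 0.46 for Prdx5. The median over the 10 genes was 0.42, and Gpx1, at -0.02, and Cat, at -0.09, lay below 0 once centred.

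In Th1-type cells 0 of the 10 members were higher or lower than in naive-type cells by the fold rule, where 3.85% of the 7294 genes tested were higher and 0.713% lower, 4.57% either way, in the same 5 hashtags. Txn1 had a median log2 ratio of 1.33 (0.51 to 1.63), read at 336, 369, 393, 254 and 227 CPM in Th1-type cells, against 131, 117, 151, 156 and 159 CPM in naive-type cells. It missed the rule in hashtag 6 and met it when that hashtag was left out. Gpx1 was the 1 member with a median below 0, at -0.01 (-0.41 to 0.70), while centring on the median gene also put Prdx1, at -0.14, and Sod1, at -0.06, below 0, and the other 8 without centring lay between 0.10 for Prdx1 and 0.57 for Prdx5.

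**Figure D3:**
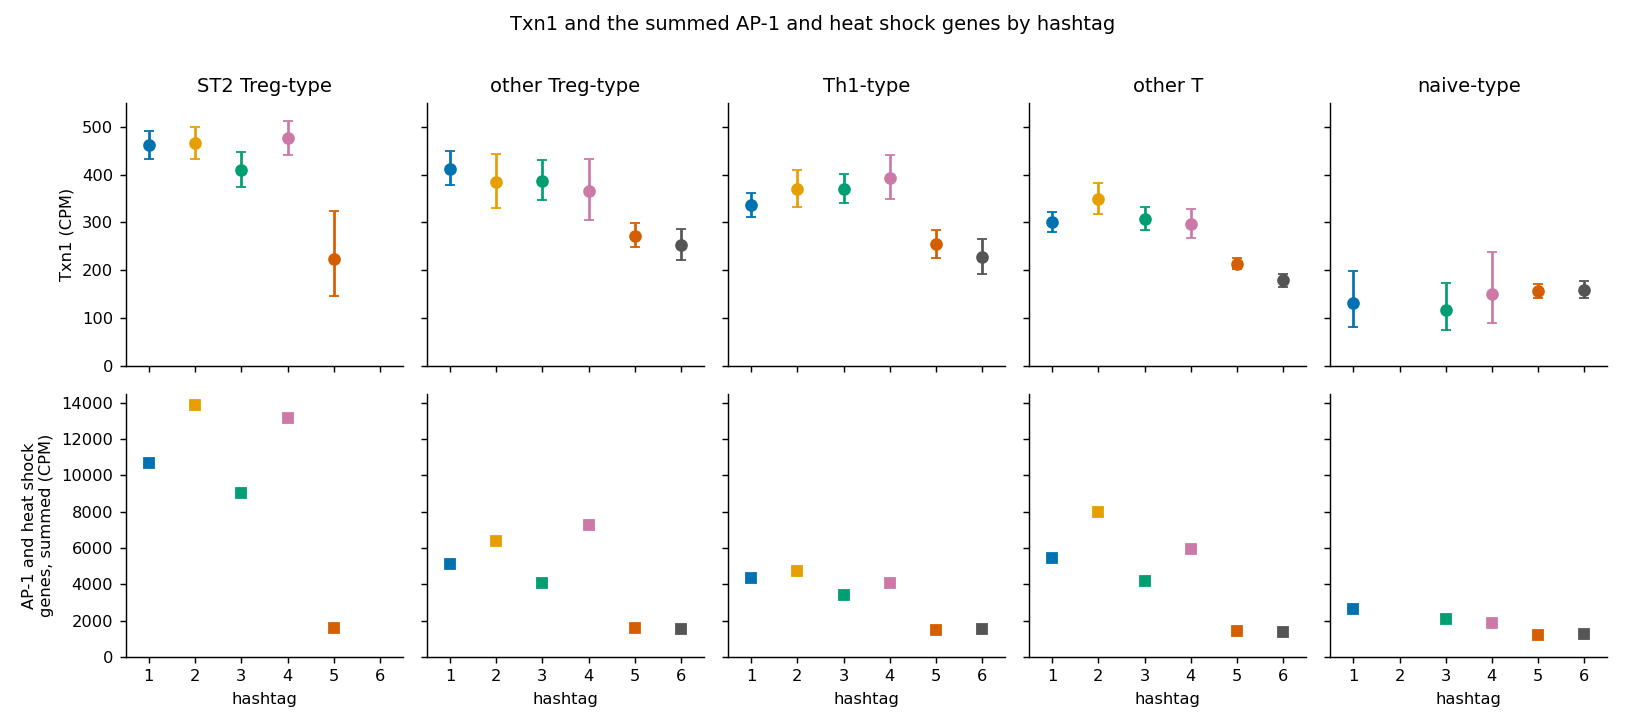
Txn1 level with its 95% Poisson interval (upper row, CPM) and the summed level of 10 genes, Egr1 and AP-1 and heat shock genes (lower row, CPM), by hashtag (horizontal axis) in 5 gated types, leaving out hashtags with fewer than 30 cells. Both measures are lowest in hashtags 5 and 6 in other Treg-type, Th1-type and other T cells, whereas Txn1 in naive-type cells lies between 117 and 159 CPM with overlapping intervals.

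Hashtags were next compared within a type. The highest and the lowest hashtag of a gene were called apart when they differed 1.5-fold or more and their 95% Poisson intervals did not meet. Genes with few UMIs have wide intervals and are called less readily. Txn1 was apart in 4 of the 6 types. In other Treg-type cells it was 413 CPM in hashtag 1, against 252 CPM in hashtag 6. In Th1-type cells it was 393 CPM in hashtag 4, against 227 CPM in hashtag 6.

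In other T cells Txn1 was 349 CPM in hashtag 2, against 179 CPM in hashtag 6, and in ST2 Treg-type cells it was 476 CPM in hashtag 4, against 223 CPM in the 30 cells of hashtag 5. In each of these types hashtags 5 and 6, where used, lay below hashtags 1 to 4. Naive-type cells did not show this, with 131, 117, 151, 156 and 159 CPM in hashtags 1, 3, 4, 5 and 6. The AP-1 and heat shock sum was also lower in hashtags 5 and 6 than in hashtags 1 to 4: it was 5096, 6407, 4062, 7248, 1596 and 1552 CPM in other Treg-type cells of hashtags 1 to 6, and 4358, 4746, 3384, 4085, 1480 and 1555 CPM in Th1-type cells. In naive-type cells, where Txn1 was not lower, the sum was lower there too, at 2622, 2075, 1850, 1229 and 1259 CPM in hashtags 1, 3, 4, 5 and 6. Its part in the Txn1 difference was not tested.

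In ST2 Treg-type cells 3 members were apart, where 11.2% of genes were: Txn1, Gpx4 at 143 CPM in hashtag 1 against 57.8 CPM in hashtag 5, and Prdx2 at 306 CPM in hashtag 5 against 170 CPM in hashtag 2. The haemoglobin level in the ST2 Treg-type cells of hashtag 5 was 801 CPM. In the same hashtag it was 2130 CPM in other Treg-type and 2963 CPM in Th1-type cells, where Prdx2 was at 189 and 180 CPM. The part of haemoglobin-rich barcodes in the Prdx2 level was not tested. Without hashtag 5, which also falls below 30 cells once haemoglobin-rich barcodes are left out, 0 members were apart in ST2 Treg-type cells. In other Treg-type cells 2 members were apart, Txn1 and Sod1, where 17.4% of genes were, and Sod1 was 129 CPM in hashtag 2 against 72.2 CPM in hashtag 5. In Th1-type cells Txn1 was the 1 member apart, where 16% of genes were. Txnrd1 also differed 1.73-fold there, as Txn1 did, but on fewer UMIs its intervals met.

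In other T cells 2 members were apart, Txn1 and Txnrd1, where 26.5% of genes were, and Txnrd1 was 34.6 CPM in hashtag 2 against 20.2 CPM in hashtag 6. In naive-type cells Prdx5 was the 1 member apart, at 118 CPM in hashtag 5 against 47.7 CPM in hashtag 1, where 5.34% of genes were apart. In proliferating cells, with 2 hashtags of 30 cells or more, 0 members were apart, where 2.11% of genes were. Gpx1, Prdx1, Sod2 and Cat were apart in none of the 6 types as gated here, although Gpx1, Sod2 or Cat was in some under other filters or hashtag calls. Cat differed 2.17-fold in other Treg-type cells and Sod2 3.18-fold in naive-type cells, with intervals that met. Without mitochondrial and ribosomal protein genes, Txn1 was no longer apart in other Treg-type cells.

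The members were also compared by their pattern over the 30 sums of a hashtag and a type with at least 30 cells. These points share a library and types recur among them, so the coefficients are a description and carry no p. Proliferating cells gave 2 of the sums, at 600 and 553 CPM for Prdx1 and 1039 and 1068 CPM for Txn1. The highest of the other sums were 368 CPM for Prdx1 and 476 CPM for Txn1. The part of these 2 sums in the coefficients was not tested. Pearson's r of log2(CPM + 1) was highest between Prdx1 and Prdx2 (0.79), Gpx4 and Txn1 (0.77), Gpx1 and Gpx4 (0.77), Txn1 and Txnrd1 (0.76) and Prdx1 and Txn1 (0.75). It was lowest between Prdx5 and Sod1 (0.15) and between Txnrd1 and Sod1 (0.21). Of the 2604 genes at 50 CPM or more, those most like Txn1 were Clic1 (0.98), Gapdh (0.97) and Actb (0.96), and those most like Prdx1 were Anp32b (0.94), Arl6ip1 (0.92) and Metap2 (0.91). Prdx2 was most like Phf11b (0.93), Cwc15 (0.92) and Pomp (0.90). Gpx1 was most like Ubash3b (0.88), Itgb7 (0.86) and Cxcl2 (0.83), and Gpx4 most like Arpc3 (0.88), Ubash3b (0.87) and Etfb (0.86). Cat had the weakest likeness, with Zfp148 (0.85), Mrps24 (0.77) and Wasf2 (0.77).

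The other genes of these pathways were read from lists of 87 genes, covering glutathione synthesis, transferases, the peroxiredoxin and thioredoxin system, haem and iron handling, NRF2 control, selenoprotein synthesis and NADPH supply. In proliferating cells 60 were tested, of which 6 were higher and 1 was lower than in other non-Treg T cells, shares near or below the 8.84% higher and 4.77% lower over all genes, with a median of 0.33 against 0.04 over all genes. Prdx4, the peroxiredoxin of the endoplasmic reticulum, was at 160 CPM in proliferating and 31.7 CPM in other non-Treg T cells, a median log2 ratio of 2.40 (2.13 to 2.80). Selenoh, a nuclear selenoprotein with a redox motif, was at 372 CPM in proliferating and 86.4 CPM in other non-Treg T cells (2.14, range 1.94 to 2.41). Gsto1, a glutathione transferase of the omega class, had a median of 1.96 (0.81 to 2.61). Txnip, which binds and inhibits thioredoxin, was the 1 gene lower, at 108 CPM in proliferating and 313 CPM in other non-Treg T cells (-1.46, range -1.53 to -1.23). In these cells thioredoxin and its reductase were thus higher and the thioredoxin inhibitor lower in all 4 hashtags.

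In ST2 Treg-type cells 61 genes of the lists were tested against Th1-type cells, of which 4 were higher and 1 was lower, beside 2.59% higher and 1.09% lower over all genes, with a median of 0.09. Glrx, glutaredoxin, which uses glutathione to reduce mixed disulfides, was at 293 CPM in ST2 Treg-type and 88.3 CPM in Th1-type cells, a median log2 ratio of 1.61 (1.29 to 1.88). Gsto1 was at 38.2 CPM in ST2 Treg-type and 9.62 CPM in Th1-type cells (2.28, range 1.41 to 3.58). Selenom, a selenoprotein of the endoplasmic reticulum, was at 21.1 CPM in ST2 Treg-type and 9.47 CPM in Th1-type cells (0.96, range 0.61 to 1.34). Sephs2, which makes the selenium donor for selenoproteins, was lower, at 16.3 CPM in ST2 Treg-type and 29.0 CPM in Th1-type cells (-0.96, range -1.05 to -0.59). 

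Against naive-type cells Glrx met the rule in all 3 types. It was at 275 CPM in ST2 Treg-type and 20.4 CPM in naive-type cells of the same hashtags (3.10, range 2.51 to 3.78), at 130 CPM in other Treg-type and 21.1 CPM in naive-type cells (2.03, range 1.60 to 3.30), and at 84.5 CPM in Th1-type and 21.1 CPM in naive-type cells (1.43, range 1.17 to 2.17). In ST2 Treg-type cells 5 of 58 genes tested were higher, near the 8.06% over all genes, among them Selenom (2.52, on 5 UMIs in naive-type cells) and Gsto1 (1.56), and 2 were lower, beside 1.35% over all genes. The lower ones were Nfe2l2, which encodes NRF2, at 32.2 CPM in ST2 Treg-type and 58.5 CPM in naive-type cells (-0.85, range -1.15 to -0.64), and Blvrb, biliverdin reductase B, at 8.61 CPM in ST2 Treg-type and 22.7 CPM in naive-type cells (-1.26).

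In other Treg-type cells 2 of 56 genes were higher than in naive-type cells, Glrx and Mafg, a small Maf partner of NRF2, at 29.8 CPM in other Treg-type and 10.6 CPM in naive-type cells (1.23, range 0.69 to 2.23), and 0 were lower, beside 4.66% higher and 0.683% lower over all genes. In Th1-type cells 1 of 55 was higher, Glrx, and 1 was lower, Blvrb, at 11.2 CPM in Th1-type and 20.03 CPM in naive-type cells (-1.29), beside 3.85% higher and 0.713% lower over all genes. The list medians against naive-type cells were 0.38 in ST2 Treg-type, 0.27 in other Treg-type and 0.20 in Th1-type cells, beside 0.25, 0.27 and 0.23 over all genes tested.

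**Figure D4:**
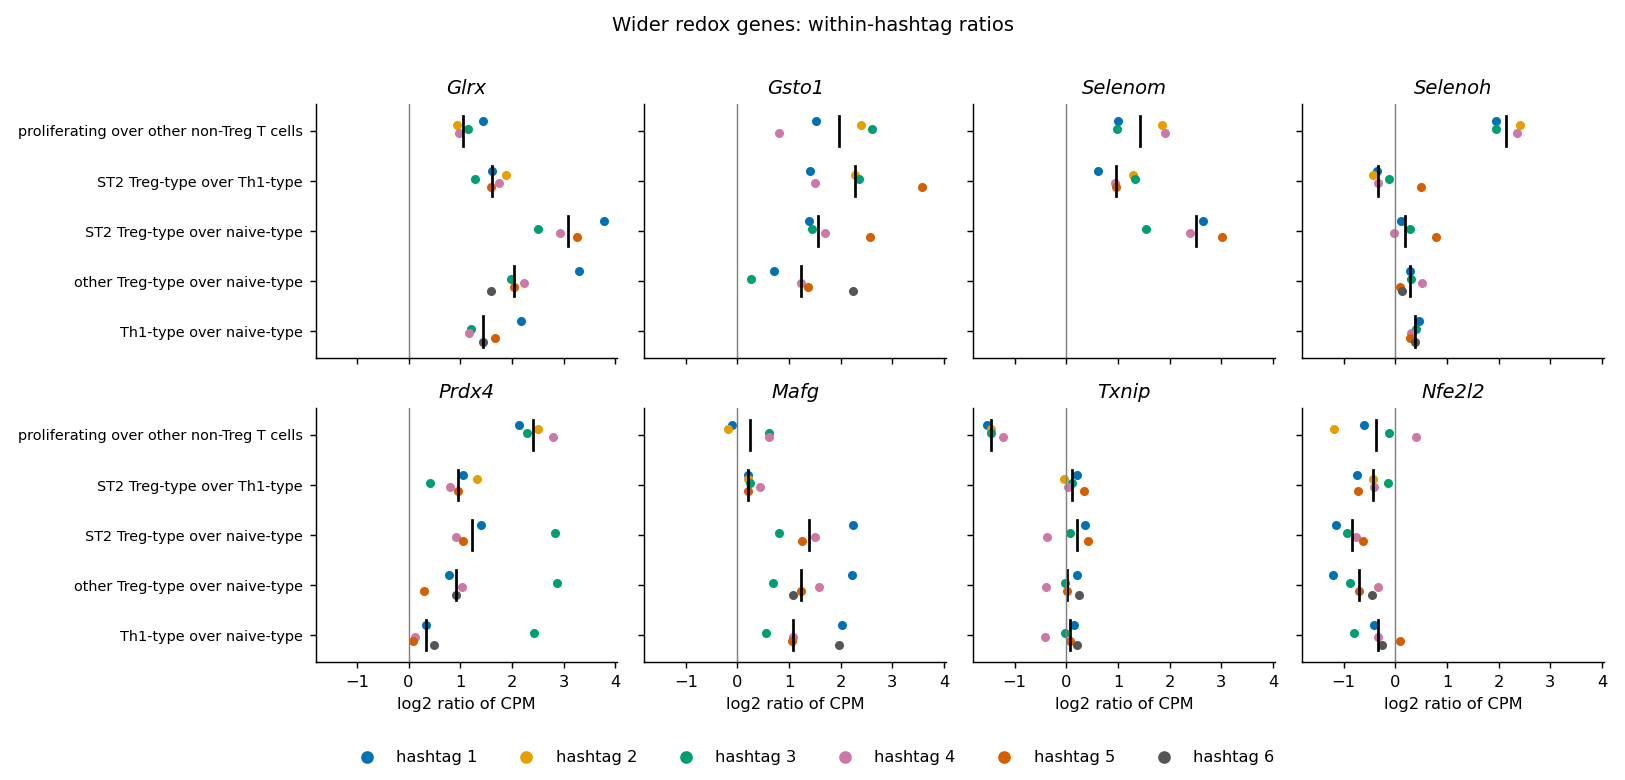
Log2 ratio of CPM within a hashtag (horizontal axis) for 8 genes of the wider lists (panels) in 5 comparisons (rows); points are hashtags, black bars their median and the grey line no difference, and a row without points was under 10 CPM. Glrx lies right of 0 in every hashtag of all 5 comparisons, while Selenoh has its highest and Txnip its lowest median in proliferating cells.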

How the data were processed

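The members and gene lists were chosen with earlier results of these data known. The deposited expression and hashtag values are raw counts of unique molecules per gene or tag and barcode, without normalisation by the authors. The matrix header names cellranger 4.0.0, whereas the submitters' processing notes list mm10, Seurat 3 and Cell Ranger 6.0; the values do not settle which version made the files. From the counts, the HTODemux function of Seurat 5.3.0, run in R 4.3.3 with its quantile at 0.99, assigned hashtags over the 6 hashtags with more than 1000 counts, in the 22952 barcodes present in both libraries. This gave 14879 single-hashtag barcodes, 5804 doublets, which were removed, and 2269 barcodes without a call. Pairs of cells that share a hashtag are not removed by this step.

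The cell filter asked for 500 or more genes and a mitochondrial share below 10% (21236 barcodes, of which 13599 had a single hashtag), and 12684 passed as T cells after barcodes with at least 2 genes of another cell type's list, or fewer than 2 T cell receptor or CD3 genes, were set aside. Gates used detected genes: proliferating cells had at least 3 of Mki67, Top2a, Birc5, Cdk1, Ccnb2 and Nusap1; Treg-type cells had Foxp3 or at least 2 of Il2ra, Ikzf2 and Ctla4, and were ST2 Treg-type with Il1rl1, or with both Areg and Klrg1. Th1-type cells had at least 2 of Tbx21, Ifng, Cxcr3, Il12rb2, Il18r1, Il18rap, Ly6c2 and Eomes, and naive-type cells at least 3 genes of a marker list with Ccr7, Lef1, Dapl1, Igfbp4 and Actn1 (1 further marker is not reported here), with neither S100a4 nor Itgb1.

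UMIs were summed per hashtag and type with pandas 2.3.3, numpy 2.4.6 and scipy 1.17.1 under Python 3.11.15. Intervals are exact Poisson intervals at 95% and cover counting error only. Ratios needed at least 30 cells on each side (20 for proliferating cells). The procedure was tested on simulated data. With 1 expression library there is no test between samples. From the wider lists, up to 3 genes in each direction with the largest median ratio among those past the fold rule were named per comparison, plus, for each member, the 3 genes most like it in pattern. Promoters came from RefSeq (GRCm38.p6), used for sequence only. Alternatives covered the hashtag call, the cell filter, the Treg gate, scaling, weighting and depth of cells, the filter on low values, the prior count and leaving out each hashtag; leaving out barcodes with 5 or more haemoglobin UMIs (114 T cells) was added after the data were seen.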

Additional observations from a re-analysis of the deposited data

Results flagged for a closer look

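Of 50 ratios checked, 9 had 1 hashtag far from the others by Dixon's criterion, which chance meets in about 1 of 20 groups; ratios that share cells are not independent. For ST2 Treg-type over Th1-type cells, hashtag 5, with 30 ST2 Treg-type cells, stood apart for Gpx1 (log2 ratio 0.2526, nearest other hashtag 1.001) and for Sod1 (-0.3478, nearest 0.3878). For ST2 Treg-type over naive-type cells, hashtag 5 stood apart for Txn1 (0.537, nearest 1.62).

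In the same comparison hashtag 4, with 32 naive-type cells, stood apart for Prdx1 (1.085, nearest 0.4597), Sod1 (1.438, nearest 0.3558) and Sod2 (1.755, nearest 0.5623), and hashtag 1, with 47 naive-type cells, for Prdx5 (1.623, nearest 0.7028). Hashtag 4 also stood apart for Prdx1 in other Treg-type over naive-type cells (1.253, nearest 0.417) and in Th1-type over naive-type cells (0.7729, nearest 0.1462). Prdx1 in the naive-type cells of hashtag 4 was 151 CPM with a 95% interval of 89.3 to 238 CPM. The part of the small cell numbers in these values was not tested.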

How the results depend on the processing

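No ratio that met the fold rule changed sign under any alternative run. For proliferating cells 3 or 4 members met it in every alternative, 4 whichever hashtag was left out; too few proliferating cells had 2000 to 6000 UMIs for a value. For ST2 Treg-type over Th1-type cells the count of 0 became 1 (Gpx1) with the stricter cell filter (1000 genes, under 5% mitochondrial), Tregs gated by Foxp3 alone or no haemoglobin-rich barcodes, and 2 in cells of 2000 to 6000 UMIs. All 4 settings left hashtag 5 with too few cells, so 2 things changed at once, and 5.51% to 7.96% of all genes were then past the rule, against 3.68%; leaving out hashtags gave 0 to 1 (1, also Gpx1, without hashtag 5). For ST2 Treg-type over naive-type cells the count of 1 became 2 with hashtags called by a top tag at 80% (Prdx2 and Txnrd1, with Prdx5 lost and hashtag 4 not used). It became 5 with the stricter filter and 5 at 2000 to 6000 UMIs, where hashtags 1 and 3 alone were left and 26.6% and 27.3% of all genes passed, against 9.41%. It became 4 with Foxp3 alone and 4 without haemoglobin-rich barcodes, where hashtag 5 was not used and 18.1% and 17.9% passed, and 0 with CPM without mitochondrial and ribosomal protein genes or with centring on the median gene; a prior count of 2 and the mean of per-cell CPM gave Txn1 in place of Prdx5. Leaving out hashtags gave 2 to 3 (3 without hashtag 5). For other Treg-type over naive-type cells the count of 1 became 0 under both of these scalings, and 1 to 2 without a hashtag (2 without hashtag 6); with Foxp3 alone it was Txnrd1 in place of Txn1. For Th1-type over naive-type cells leaving out hashtags gave 0 to 1 (1 without hashtag 6). The cause was not tested.

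For the highest over the lowest hashtag, the count in ST2 Treg-type cells (3) became 0 with the stricter filter, 1 at 2000 to 6000 UMIs and 0 without haemoglobin-rich barcodes, each also without hashtag 5, and 0 to 3 without a hashtag (0 without hashtag 5). In other Treg-type cells (2) it became 1 without mitochondrial and ribosomal protein genes and 1 at 2000 to 6000 UMIs, and 1 to 2 without a hashtag. In Th1-type cells (1) and naive-type cells (1) it became 2 with the stricter filter, and without a hashtag it was 1 to 1 and 0 to 2. In other T cells (2) it became 4 with the top tag, 1 without mitochondrial and ribosomal protein genes, 1 at a filter of 50 CPM and 1 without haemoglobin-rich barcodes, and 1 to 2 without a hashtag. The cause was not tested. Ratios are matched by hashtag throughout; no test over hashtags was run, since their origin is unknown and they share 1 library. Thin groups (30 ST2 Treg-type cells in hashtag 5, 32 naive-type cells in hashtag 4, and 28 and 22 proliferating cells in hashtags 3 and 4) and low counts of Cat and Txnrd1 limit the precision.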

Other observations

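The members not yet given a nearest gene had these over the same 30 sums, as a description without p. Prdx5 was most like Abhd17a (Pearson's r 0.90), Il10rb (0.90) and Sit1 (0.88), and Txnrd1 most like Eif3c (0.89), Jpt1 (0.88) and Smdt1 (0.88). Sod1 was most like Furin (0.88), Ltb4r1 (0.88) and Gnb1 (0.87), and Sod2 most like Rab8b (0.90), Ikzf3 (0.90) and Ppp2ca (0.89).

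In the 19 ST2 Treg-type cells of hashtag 6, too few for the comparisons, Txn1 was read at 223 CPM (95% Poisson interval 138 to 341 CPM), Gpx1 at 149 CPM (81.4 to 250 CPM) and Gpx4 at 53.2 CPM (17.3 to 124 CPM). The AP-1 and heat shock sum of these cells stood at 2838 CPM.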
